A study of Mus musculus with 12 samples.

Results

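The change in gene expression that follows loss of β-catenin and Hoxa9 together was set against the change that follows loss of Prmt1, gene by gene, across the mouse autosomes. For each gene 3 quantities were estimated on the log2 scale: the change in the double knockout (dKO over its wild type, WT), the change in the Prmt1 knockout (PRMT1_KO over its own wild type, WT_PRMT1), and the difference, which is the dKO change minus the PRMT1_KO change. The genes were all 16503 autosomal genes that passed a filter on low counts, out of 51155 autosomal genes in the count table, and no gene was chosen by its values. The measurements came from 8 of the 12 libraries of the series, 2 in each of 4 groups.

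All libraries were made from LSK cells, sorted as lacking lineage markers and carrying Sca1 and Kit, a small fraction in which the stem cells and earliest progenitors of blood are found. The cells were taken from primary transplanted mice 6 weeks after tamoxifen, a treatment that every group received according to the design text. dKO cells were targeted at both β-catenin (gene Ctnnb1) and Hoxa9 and were compared with WT. PRMT1_KO cells were targeted at the arginine methyltransferase Prmt1 and were compared with WT_PRMT1. The titles name the groups as KO, and the genotype field calls them knockdown. The sources used here do not give the Cre driver, the deleted exons, the age of the mice, or whether a group's libraries came from different mice. The p-values therefore measure only the spread between these libraries, which may be technical.

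β-catenin carries the canonical Wnt signal to the nucleus, and Hoxa9 is a homeobox transcription factor that is active in stem and early progenitor cells and declines as blood cells mature. Prmt1 places most of the asymmetric dimethylarginine in mammalian cells, on histone H4 and on many RNA-binding and DNA repair proteins. The series title names DNA replication, genome stability and a dependency on Prmt1 beside β-catenin and Hoxa9, so the comparison asks how far the 2 losses change the same genes.

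The 8 libraries held 17591986 to 26755289 counts. The markers of the sort were present in each of them, at 139 to 414 CPM (counts scaled to a common library size) for Kit, 86.9 to 298 CPM for Ly6a (Sca1) and 246 to 359 CPM for Ptprc (CD45). Of the targeted genes, Hoxa9 (ENSMUSG00000038227, GRCm38 chr6:52223100-52231089, minus strand) stood at 9.21 and 8.92 CPM in dKO, against 58.7 and 59.9 CPM in WT, and 41.1 and 43.0 CPM in PRMT1_KO, against 44.7 and 44.4 CPM in WT_PRMT1, and Prmt1 at 255 and 259.5 CPM in dKO, against 322 and 334 CPM in WT, and 118 and 112 CPM in PRMT1_KO, against 283 and 292 CPM in WT_PRMT1. Ctnnb1 had 227 and 235 CPM in dKO, against 315 and 342 CPM in WT, and 378 and 384 CPM in PRMT1_KO, against 332 and 354 CPM in WT_PRMT1, and it fell by 0.51 ± 0.07 in dKO (adjusted p = 0.000746 by edgeR's quasi-likelihood test with Benjamini-Hochberg adjustment, as are all adjusted p-values here). Prmt1 itself was also lower in dKO, by a log2 change of -0.35 ± 0.07 (adjusted p = 0.00419, lost without WT S2, up to 0.0787). Hoxa9 and Ctnnb1 were not called in PRMT1_KO, with log2 changes of -0.08 ± 0.16 and 0.15 ± 0.07. Y-linked genes were high in both knockouts and near 0 in both wild types and Xist the reverse, so sex and knockout cannot be told apart in either change. This holds for every shared change below, and autosomal genes alone are reported.

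Most genes that moved in dKO moved the same way in PRMT1_KO, and more genes moved in PRMT1_KO. In dKO 2722 genes passed an adjusted p of 0.05 (16.5% of those tested), 1425 higher (8.63%) and 1297 lower (7.86%). In PRMT1_KO 5244 passed (31.8%), 2678 higher (16.2%) and 2566 lower (15.5%). The difference itself was called for 2383 genes (14.4%), 1216 with the higher change in dKO (7.37%) and 1167 with the lower (7.07%). These shares over all genes are the background for every list count below. With libraries scaled by their totals alone the difference split as 1496 and 830, and PRMT1_KO as 1921 higher and 3380 lower, and the median difference over all autosomal genes was 0.14 in place of 0.03.

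Called in both comparisons were 1696 genes, 87.7% of them in the same direction and 12.3% in opposite directions. The 1487 genes with the same direction (9.01% of those tested), 756 higher in both (4.58%) and 731 lower in both (4.43%), made up 54.6% of the dKO calls and 28.4% of the PRMT1_KO calls. For 1230 of them the difference was not called. This does not show equal changes: the 95% interval of the difference lay within 1 log2 unit of 0 for 892 of the 1230 (72.5%) and within 0.5 for 365 (29.7%). Of the other genes, 216 moved further in PRMT1_KO and 41 further in dKO. The opposite-direction genes numbered 209 (1.27%), with 106 higher in dKO and lower in PRMT1_KO (0.642%) and 103 the other way (0.624%). A further 392 genes were called in dKO alone with a called difference, and 1449 in PRMT1_KO alone. Without 1 library the counts ranged from 809 (without WT S2) to 1374 (without dKO S6) for the same direction, from 99 (without WT S1) to 238 (without dKO S6) for opposite directions, and from 1440 (without PRMT1_KO S8) to 2312 (without dKO S6) for the difference.

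**Figure D1:**
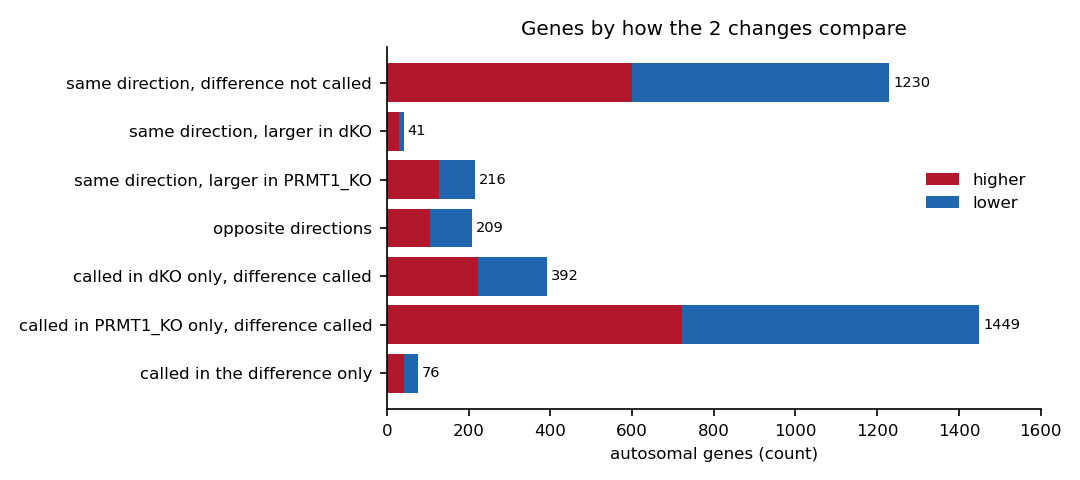
Number of autosomal genes (horizontal axis) in each class of call at an adjusted p of 0.05, split into higher (red) and lower (blue), with the direction taken in dKO, in PRMT1_KO for genes called only there, and of the difference for genes called only in it. The class with the same direction and no called difference holds 1230 genes, against 209 with opposite directions and 1449 that moved in PRMT1_KO alone.

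The changes were larger in PRMT1_KO. Over the 10068 genes with a mean of at least 5 CPM, the median absolute log2 change was 0.257 in dKO and 0.402 in PRMT1_KO, with a median standard error of 0.150 in both. Among the 1487 genes that moved the same way, the medians were 0.720 in dKO and 0.908 in PRMT1_KO, and 963 of them (64.8%) had the larger estimate in PRMT1_KO. Across the genes with at least 5 CPM the 2 changes had a Pearson r of 0.157 and a Spearman rho of 0.410, given as a description, since genes are not independent replicates.

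**Figure D2:**
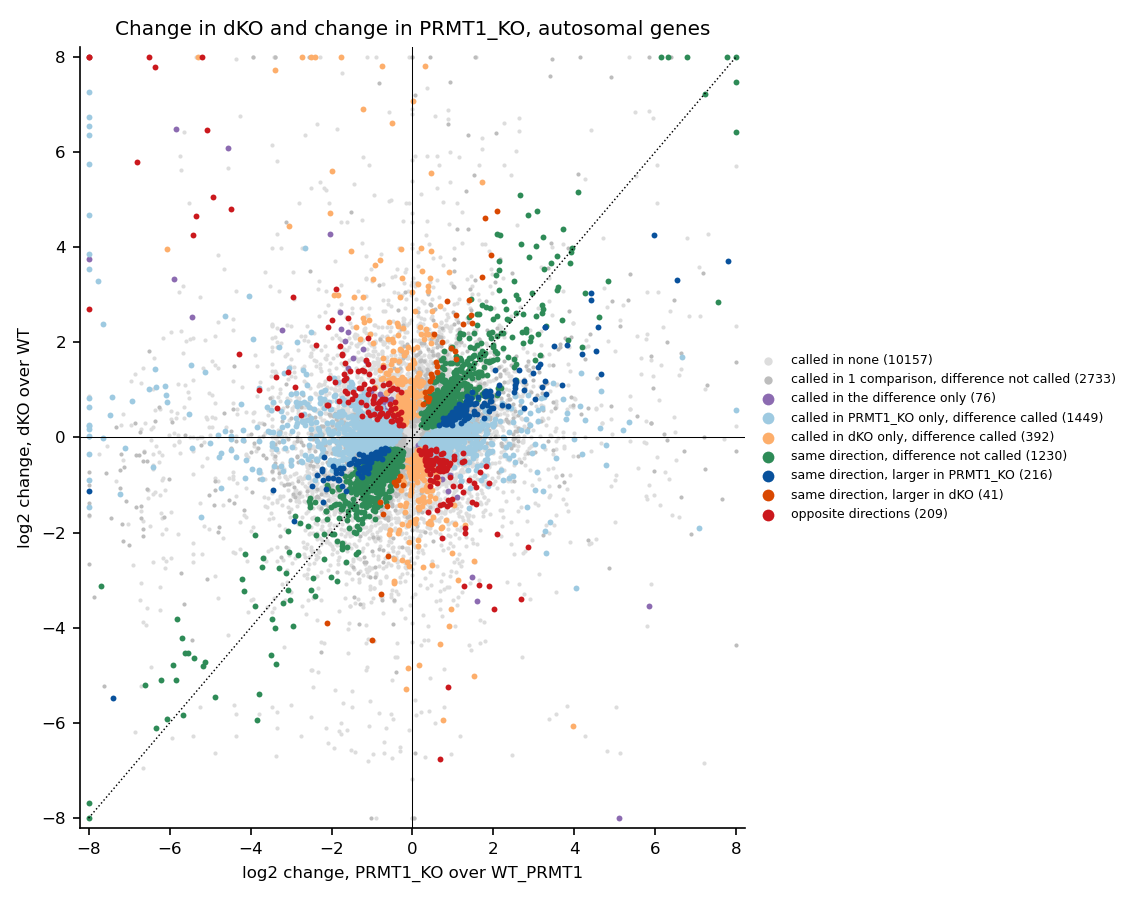
Log2 change in dKO over WT (vertical axis) against log2 change in PRMT1_KO over WT_PRMT1 (horizontal axis) for every autosomal gene tested, coloured by class, with values beyond 8 in size drawn at the edge and a dotted line of equal change. Genes called in the same direction fill the upper right and lower left, and the 209 opposite-direction genes the upper left and lower right.

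Among the 2383 genes with a called difference, 1938 (81.3%) had the knockouts called in the direction of the difference and the wild types not called in that direction. For 194 (8.14%) only the wild types were called in that direction, for 127 (5.33%) both were, and for 124 (5.20%) neither was. Groups called in the opposite direction were counted with those not called. WT_PRMT1 and WT differed at 1109 genes (6.72%), 574 higher (3.48%) and 535 lower (3.24%) in WT_PRMT1. They differed at 426 without WT S1, 437 without WT S2 or WT_PRMT1 S10 and 394 without WT_PRMT1 S11, or 1804 by DESeq2. A missing call between the wild types does not show that they were alike, and the shares above were not recomputed under these settings. A direct comparison of dKO with PRMT1_KO called 4952 genes (30%), 2584 higher in dKO (15.7%) and 2368 lower (14.3%).

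Cell-cycle transcripts fell in both knockouts. Of 47 mitosis and G2/M genes, 45 fell in dKO and 40 in PRMT1_KO, 39 of them in both; the median log2 change was -1.27 in dKO and -1.17 in PRMT1_KO, against 0.01 and -0.03 over all autosomal genes. Of 62 DNA replication genes, 44 fell in dKO and 51 in PRMT1_KO, 39 in both; the dKO count was 23 without WT S2 and 26 without dKO S7. Kif11, the kinesin that separates spindle poles, stood at 59.6 and 44.8 CPM in dKO, against 142 and 138 CPM in WT, and 62.2 and 54.9 CPM in PRMT1_KO, against 166 and 175 CPM in WT_PRMT1. The knockout libraries lay below every wild-type library of their pair, and the 2 knockouts overlapped. The log2 change was -1.43 ± 0.14 in dKO (adjusted p = 8.25e-05) and -1.54 ± 0.14 in PRMT1_KO (adjusted p = 1.44e-05), with a difference of 0.12 ± 0.19 and a 95% interval of -0.30 to 0.54. The same held for Uhrf1, which brings maintenance DNA methylation to replicated DNA, at 87.9 and 77.6 CPM in dKO, against 200.1 and 202 CPM in WT, and 84.2 and 109 CPM in PRMT1_KO, against 227 and 229.7 CPM in WT_PRMT1, and its difference of -0.04 had an interval of -0.43 to 0.34. Ncapg, a condensin subunit, and Nusap1, a spindle protein, fell by 1.71 ± 0.23 and 1.60 ± 0.17 in dKO and by 2.12 ± 0.24 and 1.40 ± 0.17 in PRMT1_KO. In a Polycomb, MLL and DNA methylation list, Ezh2, the histone H3 lysine methyltransferase of dividing cells, changed by -1.04 ± 0.13 in dKO and -1.12 ± 0.13 in PRMT1_KO, and its paralog Ezh1 by 0.91 ± 0.12 and 0.90 ± 0.12. Without dKO S6, 16 of the mitosis genes were called lower and 1 higher in the difference, whereas all 8 libraries gave 2 higher.

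The proximal promoters of the mitosis genes are shown for 3 members because many hold the 2 short elements long associated with late cell-cycle transcription, the CHR element TTTGAA and the CCAAT box. Kif11 was named by rule, and Cdk1, the mitotic kinase, and Top2a, the topoisomerase that untangles chromosomes, were picked afterwards as members with both elements. The 250 bases before the start of transcription are from RefSeq on GRCm38, 5′ to 3′ on the strand of the gene, with every match to either element on either strand in capitals: Kif11 at chr19:37376132-37376381, plus strand, Cdk1 at chr10:69352913-69353162, minus strand, and Top2a at chr11:99024190-99024439, minus strand.
Kif11: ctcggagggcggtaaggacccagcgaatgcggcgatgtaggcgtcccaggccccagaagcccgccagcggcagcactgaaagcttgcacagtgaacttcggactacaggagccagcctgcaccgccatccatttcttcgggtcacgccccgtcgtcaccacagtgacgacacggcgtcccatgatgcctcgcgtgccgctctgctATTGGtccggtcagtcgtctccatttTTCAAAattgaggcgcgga
Cdk1: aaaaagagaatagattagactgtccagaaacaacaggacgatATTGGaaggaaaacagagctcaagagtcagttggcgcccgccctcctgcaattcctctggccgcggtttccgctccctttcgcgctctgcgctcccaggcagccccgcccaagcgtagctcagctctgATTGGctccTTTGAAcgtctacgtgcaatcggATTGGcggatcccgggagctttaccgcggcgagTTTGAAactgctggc
Top2a: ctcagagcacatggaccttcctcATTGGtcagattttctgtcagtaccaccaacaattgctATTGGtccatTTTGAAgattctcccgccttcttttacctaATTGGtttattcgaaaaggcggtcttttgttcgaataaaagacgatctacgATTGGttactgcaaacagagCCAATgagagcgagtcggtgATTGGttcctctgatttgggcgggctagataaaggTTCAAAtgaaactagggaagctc
TTTGAA was present in 14 of 38 mitosis promoters with a window (36.8%), against 11% of 11346 autosomal promoters, and CCAAT in 29 (76.3%), against 35.5%. Each window was searched on both strands, and overlapping matches were allowed. A match is a description of the letters and not of a bound site. Cdk1 and Top2a had log2 changes of -1.28 and -1.15 in dKO and -0.91 and -1.37 in PRMT1_KO.

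**Figure D3:**
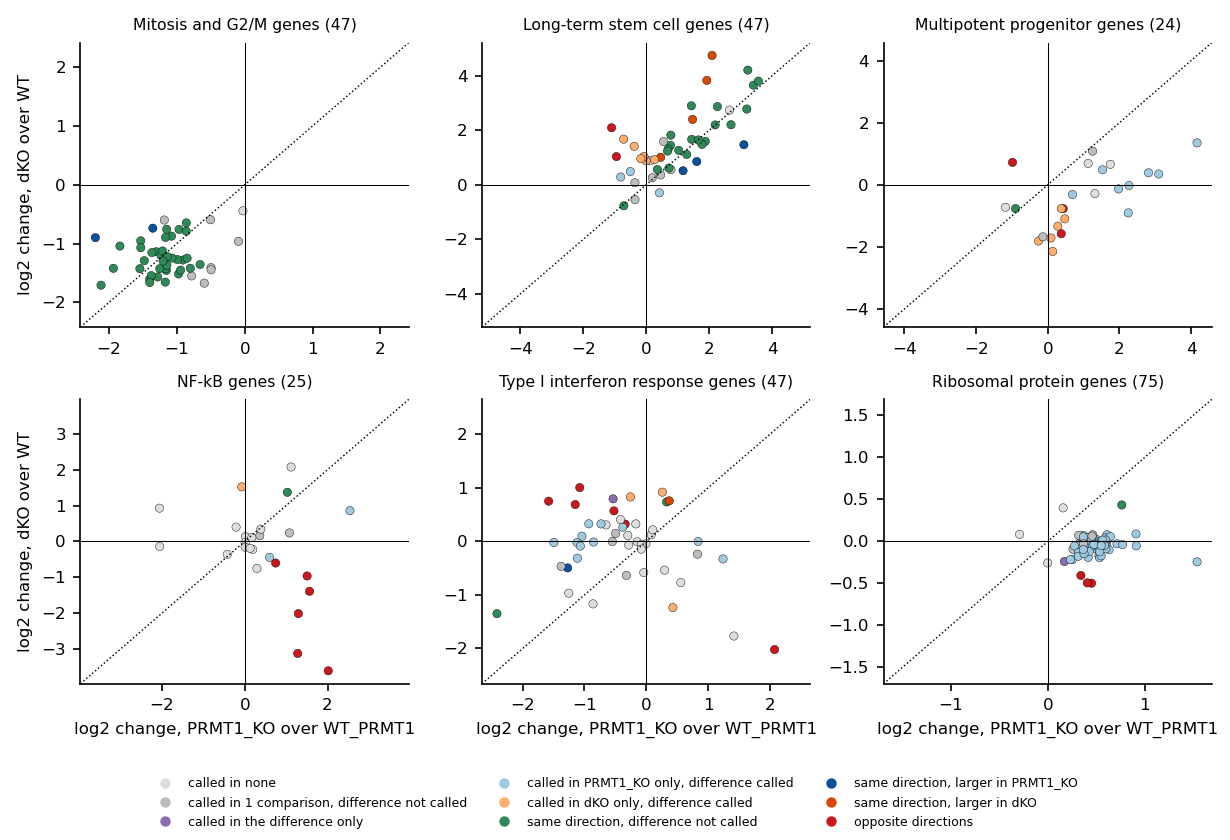
Log2 change in dKO over WT (vertical axis) against log2 change in PRMT1_KO over WT_PRMT1 (horizontal axis) for the members of 6 gene lists, coloured by class. Mitosis genes lie low on both axes, most long-term stem cell genes high on both, ribosomal protein genes to the right at a dKO change near 0, and most multipotent progenitor genes below the dotted line of equal change.

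Among 62 DNA replication genes, the difference was called higher for 14 and lower for 1. Higher calls numbered 7 without WT S1 or WT_PRMT1 S11, 8 without dKO S6, 9 without WT S2 or PRMT1_KO S8, and 24 with libraries scaled by their totals alone. Tyms, which makes thymidylate for DNA synthesis, had 75.2 and 61.3 CPM in dKO, against 106 and 130 CPM in WT, and 26.6 and 26.4 CPM in PRMT1_KO, against 129.8 and 142 CPM in WT_PRMT1. It was lower than wild type in all 4 knockout libraries and lowest in PRMT1_KO, and the difference was 1.57 ± 0.17 (adjusted p = 0.000225). Of 58 DNA repair and checkpoint genes, 21 fell in dKO and 42 in PRMT1_KO, with 18 in both and median changes of -0.33 in dKO and -0.83 in PRMT1_KO; the difference was called higher for 12 and lower for 2. Without WT S1, WT S2 or dKO S7 the dKO count was 12, 6 and 10, and without WT S1, PRMT1_KO S9 or WT_PRMT1 S11 the difference was called higher for 7. Brca2, a factor of homologous recombination, had 33.3 and 36.5 CPM in dKO, against 37.2 and 35.4 CPM in WT, and 10.8 and 11.7 CPM in PRMT1_KO, against 45.2 and 43.5 CPM in WT_PRMT1. Its dKO and WT libraries overlapped, and PRMT1_KO lay far below WT_PRMT1, with a difference of 1.92 ± 0.16 (adjusted p = 5.14e-05). Rad50, part of the complex that holds broken DNA ends, also fell in PRMT1_KO alone, with log2 changes of -0.01 ± 0.12 in dKO and -1.20 ± 0.12 in PRMT1_KO. Xrcc6 (Ku70, an end-joining factor) and Xpc (a damage sensor of nucleotide excision repair) fell by 0.86 ± 0.08 and 0.79 ± 0.08 in dKO and stood at 0.06 ± 0.08 and 0.03 ± 0.08 in PRMT1_KO.

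Most megakaryocyte genes and genes that mark long-term stem cells were higher in both knockouts. Of 47 long-term stem cell genes, 37 rose and 2 fell in dKO (median 1.31). In PRMT1_KO 30 rose and 6 fell (median 0.77), with 27 higher in both. The 6 were 2 without PRMT1_KO S8 or WT_PRMT1 S11, 3 without PRMT1_KO S9 or WT_PRMT1 S10, and 4 without WT S1 or WT S2. Vwf, von Willebrand factor, which marks a platelet-biased part of the stem cells, had 532 and 659 CPM in dKO, against 61.5 and 33.1 CPM in WT, and 133 and 127 CPM in PRMT1_KO, against 14.5 and 9.98 CPM in WT_PRMT1. Every knockout library lay above both wild types of its pair, and the dKO level was the higher of the 2 knockouts, as was WT of the 2 wild types. The log2 changes were 3.66 ± 0.30 in dKO (adjusted p = 2.81e-05) and 3.41 ± 0.30 in PRMT1_KO (adjusted p = 1.43e-05), and the difference was 0.25 ± 0.39 with an interval of -0.62 to 1.11. Slamf1 (CD150), a surface marker of long-term stem cells, had 43.7 and 67.6 CPM in dKO, against 8.31 and 7.87 CPM in WT, and 18.3 and 16.9 CPM in PRMT1_KO, against 1.25 and 2.52 CPM in WT_PRMT1. Clec1a, a lectin receptor, and Clu, clusterin, changed by 3.81 ± 0.32 and 4.21 ± 0.37 in dKO and by 3.57 ± 0.35 and 3.23 ± 0.36 in PRMT1_KO. In bulk RNA a larger share of such cells and more RNA per cell cannot be told apart.

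Among 26 megakaryocyte and platelet genes, 17 rose in dKO and 23 in PRMT1_KO, and all 17 of the dKO genes were shared. The difference was lower for 7 and higher for 1. Selp, the platelet adhesion molecule P-selectin, had 132 and 185 CPM in dKO, against 28.8 and 34.4 CPM in WT, and 133 and 145 CPM in PRMT1_KO, against 6.11 and 5.48 CPM in WT_PRMT1. Itga2b, the αIIb chain of the platelet fibrinogen receptor, rose by 1.95 ± 0.19 in dKO and by 3.81 ± 0.21 in PRMT1_KO, a difference of -1.86 ± 0.26 (adjusted p = 0.00119). For Selp and Itga2b the wild types also differed, with WT_PRMT1 the lower. Mmrn1, multimerin of platelets and stem cells, went the other way in size, at 102 and 152 CPM in dKO, against 7.53 and 2.96 CPM in WT, and 46.6 and 46.7 CPM in PRMT1_KO, against 11.8 and 15.0 CPM in WT_PRMT1. Its 2 dKO libraries were the highest of the 8 compared, and the difference was 2.81 ± 0.57 (adjusted p = 0.00772, or 0.0516 with the robust fit). For Mmrn1 the wild types also lay apart, with WT_PRMT1 above WT, which adds to this difference.

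The difference was called higher for 14 of the 47 long-term stem cell genes (9 without dKO S7 or WT_PRMT1 S11) and lower for 4. Lower calls numbered 0 without WT S2 or PRMT1_KO S8, 2 without PRMT1_KO S9, and 1 without WT_PRMT1 S10, without WT_PRMT1 S11 or with libraries scaled by their totals alone. Tie1, an orphan receptor of the angiopoietin pathway, rose by 1.41 ± 0.14 in dKO and was at -0.38 ± 0.14 in PRMT1_KO. Fgd5, an exchange factor used to label stem cells, likewise rose by 1.68 ± 0.28 in dKO and was at -0.72 ± 0.28 in PRMT1_KO. Ndn, necdin, a growth suppressor, was called in opposite directions, at 2.10 ± 0.35 in dKO and -1.10 ± 0.36 in PRMT1_KO (adjusted p = 0.0374, lost without WT S1, WT S2, PRMT1_KO S8, PRMT1_KO S9, WT_PRMT1 S10 or WT_PRMT1 S11, up to 0.187). Hoxb5, the homeobox gene used to mark long-term stem cells, rose by 2.87 ± 0.44 in dKO and 2.27 ± 0.48 in PRMT1_KO, at 12.9 and 16.4 CPM in dKO, against 2.77 and 1.25 CPM in WT, and 3.98 and 2.32 CPM in PRMT1_KO, against 0.566 and 0.719 CPM in WT_PRMT1.

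Multipotent progenitor genes changed differently in the 2 knockouts. Of 24 such genes the difference was called lower for 16 and higher for 1, with a median of -1.56; 10 fell and 1 rose in dKO, and 2 fell and 11 rose in PRMT1_KO. Cd34, the surface sialomucin of progenitors, had 260.4 and 191 CPM in dKO, against 766 and 715 CPM in WT, and 678 and 629 CPM in PRMT1_KO, against 595 and 635 CPM in WT_PRMT1. The 2 dKO libraries lay below all 6 others. The change was -1.71 ± 0.14 in dKO (adjusted p = 2.32e-05) and 0.09 ± 0.13 in PRMT1_KO (adjusted p = 0.669), a difference of -1.80 ± 0.19 (adjusted p = 0.000211). Flt3, the cytokine receptor of lymphoid-primed progenitors, had 133 and 82.9 CPM in dKO, against 537 and 421 CPM in WT, and 522 and 519.6 CPM in PRMT1_KO, against 452 and 495 CPM in WT_PRMT1, the same pattern, with a difference of -2.29 ± 0.25 (adjusted p = 0.000282). Cd27, a tumour necrosis factor receptor family member of progenitors and lymphocytes, was called in opposite directions, at 45.8 and 46.9 CPM in dKO, against 133 and 144 CPM in WT, and 134 and 137 CPM in PRMT1_KO, against 105 and 104 CPM in WT_PRMT1. It was below WT in dKO and above WT_PRMT1 in PRMT1_KO, and the difference was -1.95 ± 0.11 (adjusted p = 3.20e-06); WT itself was above WT_PRMT1. With edgeR's robust fit, added after the data were seen, 9 rather than 16 members were called lower in the difference.

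Prtn3, a member of the same list and the azurophil granule protease proteinase 3, had 233 and 208 CPM in dKO, against 174 and 164 CPM in WT, and 1177 and 1113 CPM in PRMT1_KO, against 163 and 162 CPM in WT_PRMT1. PRMT1_KO lay above the other 6 libraries, with a change of 2.81 ± 0.19 (adjusted p = 2.95e-06) and a difference of -2.43 ± 0.26 (adjusted p = 0.000232). Of members picked after their values were seen, Ctsg (cathepsin G) and Mpo (myeloperoxidase) rose by 3.10 ± 0.41 and 1.98 ± 0.38 in PRMT1_KO and were at 0.35 ± 0.39 and -0.13 ± 0.37 in dKO. In a separate list of 28 genes of mature granulocytes, 9 rose in PRMT1_KO, and 2 to 5 without any 1 of the PRMT1_KO or WT_PRMT1 libraries; 1 fell in dKO. The granulocyte list summed to 3470 and 2463 CPM in dKO, against 2736 and 1146 CPM in WT, and to 3898 and 3309 CPM in PRMT1_KO, against 1400 and 1498 CPM in WT_PRMT1. The part of mature granulocyte RNA in the rise of Prtn3 was not tested.

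Early B-lymphoid genes were among the largest shared falls. Of 27 B cell genes, 15 fell and 3 rose in dKO, and 18 fell and 0 rose in PRMT1_KO. Among them 12 fell in both, and 1 rose in dKO and fell in PRMT1_KO. The medians were -1.02 in dKO and -1.80 in PRMT1_KO. Pax5, the transcription factor that commits cells to the B lineage, had 4.49 and 1.22 CPM in dKO, against 64.1 and 86.1 CPM in WT, and 2.76 and 2.32 CPM in PRMT1_KO, against 96.2 and 80.7 CPM in WT_PRMT1. The wild types lay above the knockouts with no overlap, and the changes of -4.72 ± 0.48 in dKO (adjusted p = 0.000111) and -5.13 ± 0.50 in PRMT1_KO (adjusted p = 2.43e-05) differed by 0.41 ± 0.63, with an interval of -0.98 to 1.80. Rag1, which cuts antigen receptor genes, changed by -4.81 ± 0.54 in dKO and -5.17 ± 0.57 in PRMT1_KO, and Igll1, a surrogate light chain component, by -5.45 ± 0.68 in dKO and -4.87 ± 0.67 in PRMT1_KO. Dntt, the terminal transferase of lymphoid progenitors, fell much further in dKO, at 174 and 94.7 CPM in dKO, against 1381 and 1232 CPM in WT, and 565 and 574 CPM in PRMT1_KO, against 922 and 1036 CPM in WT_PRMT1. Its difference was -2.50 ± 0.29 (adjusted p = 0.000376); the PRMT1_KO change alone was -0.78 ± 0.20 (adjusted p = 0.0125, lost without PRMT1_KO S8, PRMT1_KO S9 or WT_PRMT1 S11, up to 0.0845). Jchain, which joins secreted antibodies, had 4717 and 2234 CPM in dKO, against 460.3 and 962 CPM in WT, and 542 and 598 CPM in PRMT1_KO, against 658 and 694 CPM in WT_PRMT1, higher in both dKO libraries than in the other 6. The whole B cell list summed to 29970 and 15170 CPM in dKO, against 4946 and 8982 CPM in WT, and to 5439 and 7685 CPM in PRMT1_KO, against 6094 and 6143 CPM in WT_PRMT1, and its part in the fall of Pax5 and Rag1 was not tested.

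**Figure D4:**
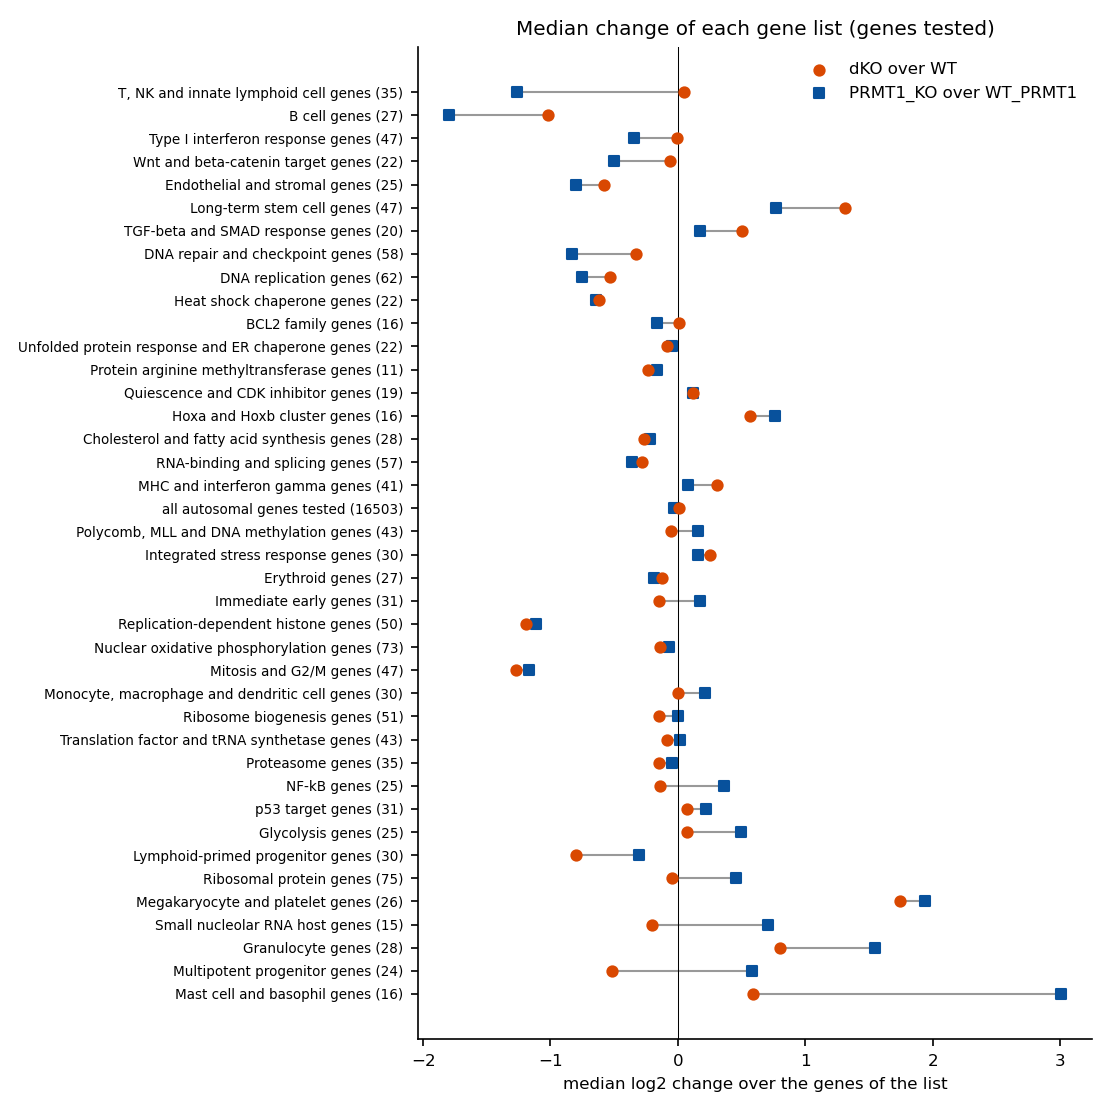
Median log2 change of each of 39 gene lists and of all autosomal genes (rows), in dKO over WT (orange circles) and PRMT1_KO over WT_PRMT1 (blue squares), sorted by the median difference. Mitosis genes have medians near each other, at -1.27 in dKO and -1.17 in PRMT1_KO, whereas multipotent progenitor genes are at -0.52 in dKO and 0.58 in PRMT1_KO.

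Mast cell and basophil genes rose, mostly in PRMT1_KO. Of 16 genes, 5 rose in dKO and 13 in PRMT1_KO, and the difference was lower for 7, or for 3 without WT S1 or PRMT1_KO S8 and 4 without PRMT1_KO S9, WT_PRMT1 S10 or WT_PRMT1 S11. Hdc, histidine decarboxylase, which makes histamine, had 11.9 and 5.01 CPM in dKO, against 8.89 and 4.07 CPM in WT, and 57.3 and 66.9 CPM in PRMT1_KO, against 4.41 and 4.54 CPM in WT_PRMT1, and Gzmb, granzyme B, had 5.88 and 1.37 CPM in dKO, against 0.732 and 1.48 CPM in WT, and 28.1 and 24.5 CPM in PRMT1_KO, against 0.453 and 0.0899 CPM in WT_PRMT1. Both stood high in PRMT1_KO alone, with differences of -3.40 ± 0.68 (adjusted p = 0.00736) and -4.95 ± 1.05 (adjusted p = 0.0100). Cma1, a mast cell protease, had 390 counts over the PRMT1_KO libraries and none in WT_PRMT1. This is at least 134-fold higher when the empty group is set at 3 counts over the group. Tpsb2, of the same list, had 591 counts over the dKO libraries and none in WT, at least 154-fold higher by the same rule. Cma1 and Tpsb2 were each called higher in both knockouts, and their differences were not called. Kit, used in the sort and part of this list, rose by 0.52 ± 0.11 in dKO (adjusted p = 0.00937, lost without WT S1 or dKO S7, up to 0.0907) and by 1.17 ± 0.11 in PRMT1_KO, with a difference of -0.65 ± 0.16 (adjusted p = 0.0189, lost without WT S1, WT S2, PRMT1_KO S8, WT_PRMT1 S10 or WT_PRMT1 S11, up to 0.0694), and Kit was lower in WT_PRMT1 than in WT.

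Most heat shock chaperone genes fell in both. Of 22 genes, 17 fell in dKO and 20 in PRMT1_KO, 16 in both. Hspb1, a small chaperone, had 2.71 and 1.75 CPM in dKO, against 31.2 and 16.8 CPM in WT, and 1.23 and 1.78 CPM in PRMT1_KO, against 12.7 and 12.2 CPM in WT_PRMT1, and Hsph1, an exchange factor for the Hsp70 family, fell by 1.81 ± 0.24 in dKO and by 2.77 ± 0.25 in PRMT1_KO. The near-identical copies Hspa1a and Hspa1b changed by -5.09 ± 0.22 and -5.47 ± 0.22 in dKO and by -5.85 ± 0.23 and -7.39 ± 0.25 in PRMT1_KO, and the split of reads between them is uncertain. Of 57 RNA-binding and splicing genes, a class that holds many Prmt1 substrates, 28 fell in dKO and 33 in PRMT1_KO, 24 of them in both; the dKO count was 16, 11 and 17 without WT S1, WT S2 or dKO S7. The splicing factor Srsf1 fell by 0.60 ± 0.09 in dKO and by 0.90 ± 0.09 in PRMT1_KO.

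Ribosomal protein genes rose in PRMT1_KO and few were called in dKO. Of 75 ribosomal protein genes 71 rose in PRMT1_KO (median 0.46), 1 rose and 3 fell in dKO (median -0.05), and the difference was called lower for 65. Summed over the list they took 119500 and 120600 CPM in dKO, against 125900 and 120900 CPM in WT, and 171000 and 156600 CPM in PRMT1_KO, against 117900 and 111900 CPM in WT_PRMT1. Rpl13a, a protein of the large subunit, had 77.4 and 66.8 CPM in dKO, against 85.0 and 85.7 CPM in WT, and 218 and 189 CPM in PRMT1_KO, against 66.6 and 73.4 CPM in WT_PRMT1. The PRMT1_KO libraries stood above all 6 others, and the difference was -1.78 ± 0.14 (adjusted p = 3.80e-05). The median difference over the list was -0.51, so Rpl13a was not typical of its size. The elongation factors Eef1a1 and Eef2 rose by 0.79 ± 0.06 and 0.81 ± 0.06 in PRMT1_KO and were at 0.00 ± 0.06 and 0.19 ± 0.06 in dKO. With libraries scaled by their totals alone, 57 ribosomal protein genes rose in PRMT1_KO and 48 were lower in the difference; without PRMT1_KO S8 the difference was lower for 35, without WT S1 for 37 and without WT_PRMT1 S11 for 42. Ribosomal protein genes have many processed pseudogenes, and the sources used here do not say how reads shared with them were counted.

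The hosts of small nucleolar RNAs, many of whose transcripts begin with a pyrimidine tract as those of ribosomal proteins do, also rose in PRMT1_KO: 8 of 15 rose in PRMT1_KO and 1 rose and 1 fell in dKO, with a median difference of -1.01. Zfas1 had 94.1 and 88.4 CPM in dKO, against 112 and 98.0 CPM in WT, and 422 and 390.1 CPM in PRMT1_KO, against 88.2 and 75.9 CPM in WT_PRMT1. It was high in PRMT1_KO alone, with a difference of -2.51 ± 0.14 (adjusted p = 3.12e-06). Snhg8 stood at -0.14 ± 0.13 in dKO and rose by 1.11 ± 0.13 in PRMT1_KO. Myc, the growth regulator and a β-catenin target in gut epithelium, rose by 0.75 ± 0.12 in PRMT1_KO and was at -0.27 ± 0.11 in dKO, with a difference of -1.02 ± 0.16 (adjusted p = 0.00220).

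Other genes moved in PRMT1_KO alone. Bcl2l11 (Bim), a pro-apoptotic member of the BCL2 family, had 12.97 and 11.96 CPM in dKO, against 18.8 and 13.3 CPM in WT, and 88.8 and 94.99 CPM in PRMT1_KO, against 18.0 and 19.6 CPM in WT_PRMT1. Sesn1, a stress-responsive p53 target, rose by 1.82 ± 0.11 in PRMT1_KO and was at 0.10 ± 0.11 in dKO. Pdcd1, the inhibitory receptor PD-1, had 0.697 and 0.152 CPM in dKO, against 0.628 and 0.648 CPM in WT, and 89.4 and 85.1 CPM in PRMT1_KO, against 2.49 and 3.87 CPM in WT_PRMT1, high in PRMT1_KO alone, and Dlk1, an imprinted membrane protein, had 0 and 0.531 CPM in dKO, against 1.05 and 0.833 CPM in WT, and 54.9 and 54.5 CPM in PRMT1_KO, against 4.53 and 5.84 CPM in WT_PRMT1. Their differences were -5.36 ± 0.66 (adjusted p = 0.000546) and -5.18 ± 0.98 (adjusted p = 0.00567). Xcr1, a chemokine receptor of cross-presenting dendritic cells, had 8.21 and 2.35 CPM in dKO, against 3.24 and 2.50 CPM in WT, and 0.245 and 0.268 CPM in PRMT1_KO, against 21.6 and 14.3 CPM in WT_PRMT1, and the class II molecule H2-Eb1 had 442 and 142 CPM in dKO, against 185 and 209.7 CPM in WT, and 61.9 and 49.2 CPM in PRMT1_KO, against 636 and 611 CPM in WT_PRMT1. Both were lowest in PRMT1_KO, and for both the wild types also differed. The monocyte, macrophage and dendritic cell list summed to 1030 and 575 CPM in dKO, against 1263 and 1076 CPM in WT, and to 3032 and 2862 CPM in PRMT1_KO, against 2804 and 2948 CPM in WT_PRMT1, and its part in the fall of Xcr1 and H2-Eb1 was not tested. Dynlt1b, by contrast, was called lower in both knockouts and fell further in PRMT1_KO. Its dKO call was lost in some of the fits without 1 library. It was at 0 in both PRMT1_KO libraries, at least 31.1-fold lower than WT_PRMT1 with the empty group set at 3 counts. Dynlt1b has near-identical copies among which reads may be split.

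In dKO alone, Hnf4a, a nuclear receptor known from liver and gut, had 0.774 and 0.380 CPM in dKO, against 17.8 and 27.8 CPM in WT, and 19.2 and 15.97 CPM in PRMT1_KO, against 18.9 and 20.0 CPM in WT_PRMT1, and Ddx4, a germ-cell RNA helicase, had 1.24 and 0.645 CPM in dKO, against 20.2 and 18.2 CPM in WT, and 17.6 and 14.5 CPM in PRMT1_KO, against 10.3 and 9.71 CPM in WT_PRMT1. Both fell in dKO, by 5.29 ± 0.41 and 4.35 ± 0.44, and were not called in PRMT1_KO. Here alone means as set against PRMT1_KO only. In the single Hoxa9 knockout of the series (HOXA9_KO), Hnf4a had 1.31 and 0.582 CPM and Ddx4 1.31 and 0.416 CPM. In the single β-catenin knockout (Bcat_KO), Hnf4a had 28.5 and 25.2 CPM and Ddx4 2.92 and 2.50 CPM. Cnn3, an actin-binding calponin in the lymphoid-primed list, fell by 3.05 ± 0.19 in dKO, with a difference of -2.59 ± 0.26 (adjusted p = 0.000144). Gfi1, a repressor that restrains stem cell division, had 11.3 and 10.4 CPM in dKO, against 24.2 and 22.3 CPM in WT, and 29.5 and 31.9 CPM in PRMT1_KO, against 20.0 and 24.2 CPM in WT_PRMT1. Its difference was -1.57 ± 0.24 (adjusted p = 0.00194). Fap, a stromal surface protease, rose by 4.72 ± 0.82 in dKO. It had 7.67 and 11.2 CPM in dKO, against 0.680 and 0.0463 CPM in WT. In PRMT1_KO it had 0.490 and 0.0892 CPM, against 1.19 and 1.08 CPM in WT_PRMT1. Fap stood at 7.43 and 8.78 CPM in HOXA9_KO and at 0.73 and 0.33 CPM in Bcat_KO. Id1, a target of bone morphogenetic protein signalling, rose by 1.97 ± 0.26 in dKO and was at 0.45 ± 0.25 in PRMT1_KO, and its difference of 1.52 ± 0.35 was called (adjusted p = 0.0149, lost without WT S2, PRMT1_KO S9 or WT_PRMT1 S10, up to 0.0562).

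**Figure D5:**
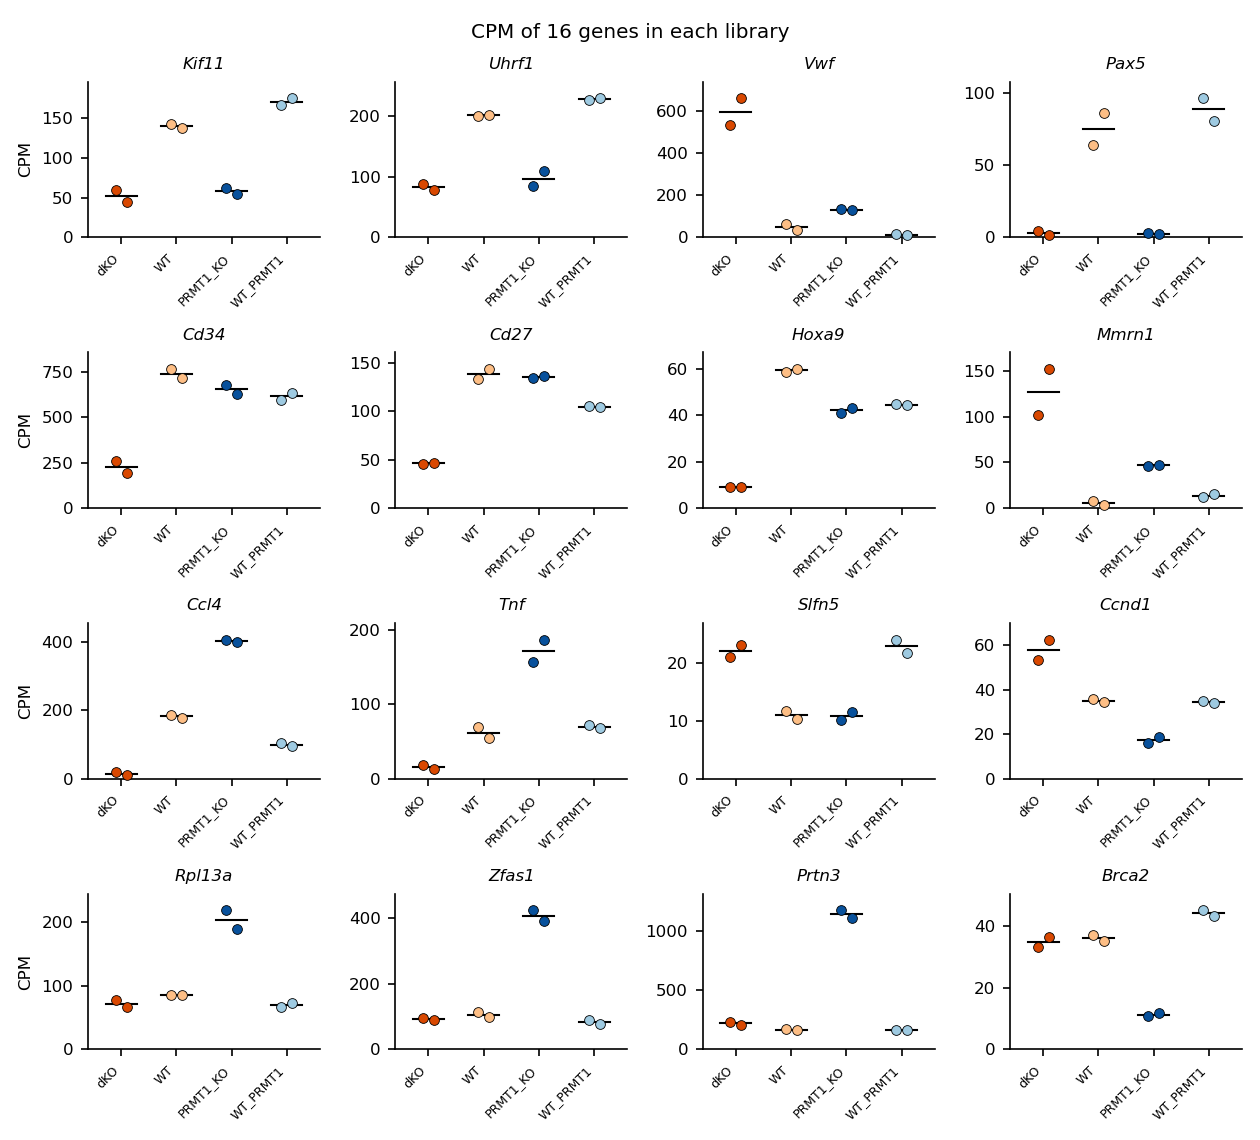
CPM of 16 genes in each library (points) with the group mean (line), for dKO, WT, PRMT1_KO and WT_PRMT1 from left to right. Kif11, Uhrf1 and Pax5 are low in both knockouts, Vwf is high in both, Cd34 is low in dKO alone, Rpl13a and Zfas1 are high in PRMT1_KO alone, and Ccl4 and Slfn5 move in opposite directions.

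Inflammatory genes were among those called in opposite directions. In the NF-kB list, 11 of 25 rose in PRMT1_KO, 2 rose and 6 fell in dKO, and 6 (Ccl3, Ccl4, Cxcl2, Tnf, Nfkbiz and Tnfaip3) were called lower in dKO and higher in PRMT1_KO. Ccl4 (ENSMUSG00000018930, GRCm38 chr11:83662584-83664683, plus strand), a chemokine, had 18.4 and 11.5 CPM in dKO, against 187 and 177 CPM in WT, and 407 and 400.3 CPM in PRMT1_KO, against 103 and 96.2 CPM in WT_PRMT1. It was below WT in dKO and above WT_PRMT1 in PRMT1_KO with no overlap. The log2 change was -3.61 ± 0.22 in dKO (adjusted p = 3.34e-06) and 2.02 ± 0.20 in PRMT1_KO (adjusted p = 2.70e-05), and the difference was -5.62 ± 0.29 (adjusted p = 2.74e-06). Tnf, tumour necrosis factor, had 17.9 and 12.6 CPM in dKO, against 69.0 and 54.0 CPM in WT, and 157 and 186 CPM in PRMT1_KO, against 71.9 and 67.9 CPM in WT_PRMT1, and its difference was -3.31 ± 0.25 (adjusted p = 3.14e-05). Nfkbiz, an inducible co-regulator of NF-kB, had 206 and 204 CPM in dKO, against 464 and 335 CPM in WT, and 742 and 920.1 CPM in PRMT1_KO, against 314 and 271 CPM in WT_PRMT1. Beyond the list, Wfdc17, a secreted macrophage protein, had 1.55 and 1.82 CPM in dKO, against 19.6 and 16.1 CPM in WT, and 94.0 and 83.0 CPM in PRMT1_KO, against 16.1 and 11.4 CPM in WT_PRMT1, and Vldlr, a lipoprotein receptor that the integrated stress response also induces, had 2.79 and 2.81 CPM in dKO, against 21.96 and 26.6 CPM in WT, and 31.6 and 24.8 CPM in PRMT1_KO, against 7.13 and 8.18 CPM in WT_PRMT1. Both were below WT in dKO and above WT_PRMT1 in PRMT1_KO. For Ccl4 and Vldlr the wild types also differed, WT_PRMT1 being lower.

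Interferon-response genes moved in both directions. Of 47 type I interferon response genes, 9 rose and 5 fell in dKO (2 without WT S1 or dKO S7, 3 without WT S2), and 6 rose and 19 fell in PRMT1_KO. The difference was higher for 19 and lower for 4 (median 0.55). Over all autosomal genes tested, 8.63% rose and 7.86% fell in dKO, and 16.2% rose and 15.5% fell in PRMT1_KO. The difference was higher for 7.37% of all autosomal genes tested and lower for 7.07%. The list summed to 3873 and 3766 CPM in dKO, against 3467 and 3316 CPM in WT, and to 4028 and 3884 CPM in PRMT1_KO, against 4249 and 4381 CPM in WT_PRMT1. Slfn5, an interferon-induced schlafen, had 20.98 and 23.2 CPM in dKO, against 11.7 and 10.3 CPM in WT, and 10.2 and 11.5 CPM in PRMT1_KO, against 24.1 and 21.8 CPM in WT_PRMT1. It was above WT in dKO and below WT_PRMT1 in PRMT1_KO, with changes of 1.01 ± 0.20 (adjusted p = 0.00603, lost without WT S2, up to 0.0558) and -1.08 ± 0.20 (adjusted p = 0.00194). The wild types also differed, with WT_PRMT1 higher than WT by 1.06 log2 units. Eif2ak2, the double-stranded RNA sensor PKR, was at 0.33 ± 0.12 in dKO and fell by 0.93 ± 0.12 in PRMT1_KO. Ifit1 went the other way, as did Cxcl10, which was counted in the separate list of antigen presentation and interferon gamma genes. Cxcl10, an interferon-induced chemokine, had 32.0 and 10.3 CPM in dKO, against 118 and 91.2 CPM in WT, and 85.0 and 106 CPM in PRMT1_KO, against 13.6 and 12.7 CPM in WT_PRMT1, and Ifit1, which binds foreign RNA caps, had 12 and 8.35 CPM in dKO, against 43.8 and 38.8 CPM in WT, and 13.7 and 18.9 CPM in PRMT1_KO, against 3.96 and 3.78 CPM in WT_PRMT1. Both were below WT in dKO and above WT_PRMT1 in PRMT1_KO, and both were lower in WT_PRMT1 than in WT, by log2 differences of -2.99 and -3.42; for Ifit1 the dKO change was -2.02 ± 0.42 (adjusted p = 0.00727, lost without dKO S7, up to 0.0508).

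The promoters of Cxcl10 and Ifit1 are shown because each holds the interferon-stimulated response element, searched as GAAA, any 2 bases and GAAA on both strands. The 250 bases before the start are from RefSeq on GRCm38 and on the strand of the gene. They are Cxcl10 at chr5:92348890-92349139, minus strand, and Ifit1 at chr19:34640639-34640888, plus strand, with matches to this element in capitals. Matches to a kappaB motif, searched as GGG, any 2 bases, TT, any base and CC, are in capitals for Cxcl10 only. The kappaB motif was not marked in Ifit1, so lower case there does not show its absence.
Cxcl10: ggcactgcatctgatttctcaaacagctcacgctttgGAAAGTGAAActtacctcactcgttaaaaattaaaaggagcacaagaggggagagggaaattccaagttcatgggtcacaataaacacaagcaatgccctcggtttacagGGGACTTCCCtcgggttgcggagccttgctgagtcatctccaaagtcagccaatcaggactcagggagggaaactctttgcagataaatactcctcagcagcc
Ifit1: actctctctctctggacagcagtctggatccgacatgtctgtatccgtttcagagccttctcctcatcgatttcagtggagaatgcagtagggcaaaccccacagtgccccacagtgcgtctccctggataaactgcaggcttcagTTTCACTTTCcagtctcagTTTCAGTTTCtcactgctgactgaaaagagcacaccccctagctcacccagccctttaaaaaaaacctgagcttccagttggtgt
The response element was present in 13 of 33 promoters of the interferon list (39.4%), against 2.83% of all 11346, and the kappaB motif in 6 of 19 promoters of the NF-kB list (31.6%), against 4.72%. Among the opposite-direction genes, the kappaB motif was present in 7 of 71 promoters of genes lower in dKO and higher in PRMT1_KO (9.86%) and the response element in 4 (5.63%). The windows of Ccl3 and Tnf, which are of this group and of the NF-kB list, held 0 matches to the kappaB motif. The response element was present in 7 of 72 promoters of genes higher in dKO and lower in PRMT1_KO (9.72%) and the kappaB motif in 4 (5.56%). Cxcl10 and Ifit1, whose promoters carry the response element, moved against most of the called genes of the type I interferon list, of which Cxcl10 is not a member.

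Growth and cell-cycle regulators were also among the opposite calls. Ccnd1, cyclin D1, which starts the cell cycle and is a Wnt target in other tissues, had 53.3 and 62.4 CPM in dKO, against 35.7 and 34.5 CPM in WT, and 16.1 and 18.6 CPM in PRMT1_KO, against 34.7 and 33.9 CPM in WT_PRMT1. It was above WT in dKO and below WT_PRMT1 in PRMT1_KO, with a dKO change of 0.72 ± 0.17 (adjusted p = 0.0140, lost without WT S1, WT S2 or dKO S7, up to 0.107) and a difference of 1.71 ± 0.24 (adjusted p = 0.00121). Txnip, a thioredoxin-binding protein that limits glucose uptake, had 296 and 312 CPM in dKO, against 436 and 415 CPM in WT, and 558 and 572 CPM in PRMT1_KO, against 234 and 234 CPM in WT_PRMT1. Its difference was -1.76 ± 0.12 (adjusted p = 1.82e-05). The wild types also differed, with WT_PRMT1 at -0.86 log2 units relative to WT. Collagen genes were high in 1 wild type. Col1a2 was called higher in dKO and lower in PRMT1_KO, at 15.6 and 19.5 CPM in dKO, against 3.09 and 1.48 CPM in WT, and 23.4 and 19.3 CPM in PRMT1_KO, against 111 and 216 CPM in WT_PRMT1, and Col1a1 had 0.929 and 1.22 CPM in dKO, against 2.93 and 2.04 CPM in WT, and 1.53 and 1.52 CPM in PRMT1_KO, against 144 and 313 CPM in WT_PRMT1. WT_PRMT1 held the highest Col1a1 level by far and the wild types differed for both genes. The endothelial and stromal list summed to 462 and 430.2 CPM in dKO, against 394 and 384 CPM in WT, and to 496 and 496 CPM in PRMT1_KO, against 697 and 976 CPM in WT_PRMT1, and the part of stromal RNA in these 2 collagen differences was not tested. Fcrla, an intracellular B cell protein, was called higher in dKO by 1.93 ± 0.39 (adjusted p = 0.00656, lost without WT S1, up to 0.0576) and lower in PRMT1_KO, at -1.80 ± 0.39.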

How the data were processed

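Expression was measured by RNA-seq in LSK cells, with 2 libraries in each of 4 groups. Per the labels' protocols, RNA came from the RNeasy Plus Micro kit and libraries from the NEB Ultra II Directional kit, which keeps strand. The submitters' processing notes name Trim Galore 0.6.6, STAR 2.7.6a and featureCounts as tools and GRCm38/mm10 as the build. The deposited values are raw read counts per gene. No source used here gives the strand setting or the annotation release, so reads of overlapping genes may not be separated. From 67.1 to 75.9% of nonzero counts were even, as when both mates of a pair are counted, so bounds set at 3 counts may be overstated.

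Columns carry sequencing S tags and no replicate number, and those named control were read as WT. Of 55471 genes, 55230 were matched to GENCODE M21. The analysis ran in R 4.3.3 and edgeR 4.0.16: filterByExpr at a minimum count of 10 left 17063 genes, libraries were scaled by TMM, and all 12 libraries entered a quasi-likelihood fit that had a mean for each group and 6 residual degrees of freedom. A call means an adjusted p under 0.05 by Benjamini-Hochberg over all 17063 genes. SE was taken as the size of the log2 change over the root of F. Depth was 17591986 to 26755289 counts, and the median SE of the difference was 0.212 at a mean of 5 CPM or more. CPM values use TMM-scaled library sizes and are not divided by gene length.

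The members and the 39 gene lists were chosen with earlier results of these data known. The largest changes were named among protein coding genes with a given symbol and a mean of at least 2 CPM. These were the 12 largest called differences per direction and the 8 largest opposite changes each way. The 10 largest shared changes per direction and the 5 largest differences in size each way were added. Without those limits, up to 4 per list with the smallest p of the difference were named. So were up to 4 per list with the largest change called in both comparisons, and the 3 targets. Of all the named genes, those with the clearest roles are described, and some are left out. Promoter windows of RefSeq matched 11346 of 16499 symbols. Alternatives were RLE size factors, library-size scaling, no filter, a filter at 5 CPM, fits to the 8 libraries or to autosomal genes alone, DESeq2 1.42.0, limma-voom (limma 3.58.1), a robust fit added after the data were seen, and each library left out in turn. The scripts were tested on simulated data. Other tools were data.table (version 1.17.8), Python 3.11.15, matplotlib 3.10.9 and pandas 2.3.3.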

Additional observations from a re-analysis of the deposited data

Results flagged for a closer look

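The change in dKO differed from the change in PRMT1_KO at 2383 autosomal genes by the test of the difference itself (edgeR's quasi-likelihood test). Of the genes called in each of the 2 comparisons, 209 moved in opposite directions.

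A signal also appeared outside the autosomes. The Y-linked gene Ddx3y averaged 67.4 CPM in dKO, against 2.38 CPM in WT, and 90.3 CPM in PRMT1_KO, against 1.30 CPM in WT_PRMT1, while Xist averaged 0.518 CPM in dKO, against 172 CPM in WT, and 0.746 CPM in PRMT1_KO, against 186 CPM in WT_PRMT1. Sex and knockout cannot be told apart in either comparison.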

How the results depend on the processing

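Over the alternatives that keep all libraries, every count given for the difference, the dKO change, the PRMT1_KO change and both directions of overlap stayed within 1.5 times its main value; the difference was called for 2085 genes by limma-voom, 2592 by the robust fit and 3132 by DESeq2. WT_PRMT1 against WT was called for 1692 genes with no filter and 1804 by DESeq2, against 1109 in the fit reported. With dKO set directly against PRMT1_KO, 4952 genes were called, 2584 higher and 2368 lower. Without 1 library, the difference was called for 1440 to 2312 genes, 666 to 1057 higher and 701 to 1255 lower, dKO for 1356 to 2533, PRMT1_KO for 3607 to 5245, both in the same direction for 809 to 1374, in opposite directions for 99 to 238, and WT_PRMT1 against WT for 394 to 1357. A lone library was assumed to vary like the other groups. The cause of these moves was not tested, apart from the fewer libraries. Of the values of named genes under the settings that keep all libraries, 7270 kept their sign and their status, whether called or not called. A call was lost for 150 and gained for 101. A further 39 turned sign without a call in either fit, as did 113 without 1 library. Without 1 library more values lost their call than gained one. No value with a call in either fit turned sign. With 2 libraries per group, differences of under about 0.5 log2 units could not be told from 0 at most genes, where the half-width of the interval had a median of 0.427 among the shared genes. No paired analysis was possible because the columns carry S tags and no replicate number.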

Other observations

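Of 41 class I and II antigen presentation and interferon gamma genes, 7 rose and 1 fell in dKO. In PRMT1_KO 13 rose and 13 fell, and 6 were higher in both. The dKO rises numbered 4 without WT S1, WT S2 or dKO S6 and 13 without dKO S7 or with no filter, and the dKO falls 4 without dKO S6. Gbp2, an interferon-induced GTPase, and H2-T23, a non-classical class I molecule, rose by 0.80 ± 0.12 and 0.54 ± 0.11 in dKO and by 1.00 ± 0.12 and 0.83 ± 0.11 in PRMT1_KO. H2-Q4, another class I gene, was at 0.16 ± 0.07 in dKO and rose by 1.24 ± 0.07 in PRMT1_KO, with a difference of -1.08 ± 0.10 (adjusted p = 0.000128, edgeR's quasi-likelihood test). H2 genes resemble each other, and reads may be split among them. The difference was called higher for 12 genes of the list, 8 without WT_PRMT1 S11, and lower for 4, 10 without dKO S6.

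Glucose metabolism differed as well. Of 25 glycolysis genes, 14 rose in PRMT1_KO, 9 with libraries scaled by their totals alone, and 4 rose and 4 fell in dKO (1 fell without WT S2). Slc2a3, a glucose transporter, had 123 and 173 CPM in dKO, against 146 and 146 CPM in WT, and 206 and 242 CPM in PRMT1_KO, against 60.2 and 70.1 CPM in WT_PRMT1, and Pfkfb3, which makes the activator of phosphofructokinase, had 42.9 and 47.1 CPM in dKO, against 48.1 and 64.7 CPM in WT, and 129 and 131 CPM in PRMT1_KO, against 47.7 and 50.8 CPM in WT_PRMT1. For Slc2a3 the wild types also lay apart, with WT_PRMT1 below WT, which adds to its difference. Slc2a3 and Pfkfb3 both stood higher in PRMT1_KO than in the other 6 libraries. Aldoc, an aldolase, went the other way, at 0.88 ± 0.18 in dKO (adjusted p = 0.00708, lost without dKO S7, up to 0.0578) and -1.43 ± 0.19 in PRMT1_KO.

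By position, the difference was called for 12.4% of genes on chromosome 2 at the lowest and 16.6% on chromosome 15 at the highest. Within 2 Mb of Hoxa9, Ctnnb1 and Prmt1 it was called for 4 of 28, 7 of 56 and 25 of 122 genes, against 14.4% of all autosomal genes tested.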
